A study of Arabidopsis thaliana with 12 samples.

Results

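The CC-type glutaredoxin genes GRXS3 (AT4G15700), GRXS4 (AT4G15680), GRXS5 (AT4G15690), GRXS6 (AT3G62930) and GRXS8 (AT4G15660) of Arabidopsis thaliana were followed through a short cytokinin treatment. Each was read from the 1 probe set assigned to it by its identifier, which makes 5 of the 22746 probe sets on the array that are not controls. RNA came from the aerial parts of seedlings grown for 2 weeks on Murashige and Skoog agar, and each of 4 groups held 3 Affymetrix ATH1 arrays. The groups were mutant plants sprayed with 20 µM trans-zeatin (tZ, a cytokinin) for 1 h, wild type Col-0 plants sprayed in the same way, mutant plants sprayed with 0.02% DMSO for 1 h, and wild type plants sprayed with DMSO. The labels describe the mutant by 2 insertion lines, SALK_098604 and SALK_054752. These lines are known to disrupt ARR10 and ARR12, whose products are type-B response regulators, the DNA-binding factors at the end of the cytokinin relay. Whether each plant held both insertions is not stated, nor is the origin of the 3 arrays in a group, so a p-value reflects differences between arrays that may be technical only. No probe set was named for either disrupted gene, and the genotype is therefore taken from the labels.

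Glutaredoxins are small oxidoreductases that use glutathione to reduce disulfides or to carry glutathione on and off protein thiols. The CC-type class, named after a pair of adjacent cysteines at the active site, is found in land plants, and several of its Arabidopsis members bind TGA transcription factors and affect the transcription of their targets. GRXS3, GRXS4, GRXS5 and GRXS8 are known as nitrate-induced genes that restrain growth of the primary root. These 4 genes lie in 1 run on chromosome 4 in the order GRXS8, AT4G15670, GRXS4, GRXS5 and GRXS3, whereas GRXS6 lies on chromosome 3. Transcripts of genes this alike may bind each other's probes, which was not checked here, so values within the run may not be independent of one another.

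A MAS5 signal is an intensity on a linear scale, and it stays above 0 even where no transcript is present. Bacterial transcripts, which the samples should lack, are probed by 27 control probe sets that show the level to expect without a transcript. Their signals had a median of 0.900 and a maximum of 11.2 over the 12 arrays. All 30 tZ values of the glutaredoxins (5 probe sets on 6 arrays) lay above that maximum, but only 10 of the 30 DMSO values did, and 6 of these belonged to GRXS4. The bacterial controls themselves showed no rise with tZ. Over the 27 controls the log2 change had a median of -0.051 in the mutant and -0.062 in wild type, with single controls between -0.34 and 0.28.

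The tZ and DMSO arrays also differed in how far the labelled RNA reached along transcripts. The ratio of 5' to 3' signal of actin was 0.252 to 0.328 on the 6 tZ arrays and 0.0409 to 0.0579 on the 6 DMSO arrays, and that of GAPDH was 0.704 to 0.837 on tZ arrays and 0.226 to 0.294 on DMSO arrays. In each comparison of tZ with DMSO the treatment and this difference between array sets therefore cannot be told apart. Comparisons of the genotypes after tZ or under DMSO lie within 1 set, whereas the interaction and the average over treatments use both. Within a set some of these ratios also differed between genotypes without overlap. That of GAPDH was 0.704 to 0.747 in mutant tZ and 0.787 to 0.837 in wild type tZ, and that of ubiquitin was 0.216 to 0.227 in mutant DMSO and 0.198 to 0.206 in wild type DMSO. The part of these differences in the genotype comparisons was not tested. Markers of green tissue were bright on every array, with a summed signal of 3 measured genes of 11 listed of 10451 to 12627 on tZ arrays and 11043 to 12543 on DMSO arrays. Of 9 listed root genes 4 were measured. PRX57 and PRX72 were below the absent-control maximum on all arrays and AT1G12560 on 10 of the 12 arrays, whereas PYK10, a beta-glucosidase gene of roots, was well above it. The sum of these 4 was 509 to 747 in mutant tZ, 497 to 576 in wild type tZ, 905 to 1280 in mutant DMSO and 650 to 1109 in wild type DMSO. Nearly all of this sum was PYK10, with means of 631, 520, 1129 and 837 in the same order. The sum was thus lower with tZ in each genotype, the opposite direction to the glutaredoxins. PRX57, though below the absent-control maximum, was called higher with tZ in the mutant (log2 change 0.42, limma adjusted p = 0.016). The part of these root genes in the results was not tested. In whole aerial parts a change in the number of cells that use a gene and a change in transcript per cell cannot be told apart.

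GRXS6 had the largest tZ response of these 5 genes in wild type. In the mutant its signal was 36.2, 28.8 and 39.2 on the tZ arrays and 6.30, 15.7 and 5.68 on the DMSO arrays, replicates 1 to 3 in each. The groups did not overlap. On the log2(signal + 10) scale, which understates the change of dim probe sets, the rise was 1.25 (SE 0.26, 95% interval 0.68 to 1.81, limma adjusted p = 0.0013). In wild type GRXS6 read 48.3, 49.95 and 60.6 with tZ and 3.06, 8.87 and 20.1 with DMSO. Again no tZ array fell within the DMSO range, although the third DMSO array read well above the others. The log2 change there was 1.69 (SE 0.26, interval 1.12 to 2.25, adjusted p = 1.1e-04). With 2 of 3 DMSO arrays below the absent-control maximum in either genotype, the starting level of GRXS6 was not measured on most arrays.

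GRXS8, the first gene of the chromosome 4 run, had the largest response of the 5 in the mutant. It read 41.0, 30.6 and 37.0 on the mutant tZ arrays and 4.92, 0.476 and 3.41 on the mutant DMSO arrays. Every tZ array lay above every DMSO array, and all DMSO values were in the range of absent controls. The log2 change was 1.85 (SE 0.24, interval 1.32 to 2.37, adjusted p = 2.5e-05). Because no mutant DMSO array rose above the absent-control maximum, the linear change is known only as a bound, at least 3.22-fold when DMSO values are raised to that maximum. In wild type GRXS8 read 18.9, 25.0 and 29.8 with tZ and 4.53, 14.6 and 1.29 with DMSO. These groups did not overlap either, with a log2 change of 1.11 (SE 0.24, interval 0.58 to 1.63, adjusted p = 0.0019).

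GRXS5 rose in both genotypes from DMSO levels that were not above background, so the extent of its rise is known only as a bound. Its signal was 22.6, 13.0 and 21.3 on mutant tZ arrays and 3.88, 1.02 and 7.43 on mutant DMSO arrays. In wild type it was 17.7, 18.0 and 35.7 with tZ and 6.23, 5.97 and 4.23 with DMSO. All 6 DMSO values lay below the absent-control maximum and all 6 tZ values above it, so GRXS5 was read above background after tZ only. By limma the log2 change was 1.05 in the mutant (SE 0.22, adjusted p = 0.0013) and 1.09 in wild type (SE 0.22, adjusted p = 9.5e-04). On the linear scale the tZ level was at least 1.65-fold higher in the mutant and at least 2.02-fold higher in wild type. With DMSO values raised to the absent-control maximum the call in the mutant was lost (adjusted p = 0.11, range over all alternatives 4.8e-04 to 0.11).

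GRXS3, at the far end of the run, rose in both genotypes, but in wild type only barely past the threshold. It read 25.6, 18.1 and 18.7 on mutant tZ arrays and 0.370, 9.19 and 7.28 on mutant DMSO arrays. No DMSO value in the mutant reached the absent-control maximum, and the change was at least 1.84-fold (log2 change 1.02, SE 0.22, adjusted p = 0.0017). In wild type it read 15.1, 25.7 and 27.9 with tZ and 11.0, 10.3 and 13.3 with DMSO. The groups did not overlap, yet the lowest tZ array stood close to the highest DMSO array, and the log2 change of 0.59 (SE 0.22, interval 0.11 to 1.07) had an adjusted p of 0.045. That call was lost without any 1 of the 3 wild type DMSO arrays, without wild type tZ replicate 2 or 3, without mutant tZ replicate 2 or 3, and with a pseudocount of 1 (adjusted p over all alternatives 0.013 to 0.24).

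GRXS4 differed from the other genes of the run in 2 ways. It was above the absent-control maximum on all 12 arrays, and it passed the test in the mutant but not in wild type. For GRXS4 the difference between these 2 responses did not itself pass by limma (adjusted p = 0.71). Its signal was 40.9, 32.8 and 93.1 on mutant tZ arrays and 23.8, 22.9 and 18.5 on mutant DMSO arrays, without overlap. The log2 change was 0.94 (SE 0.31, interval 0.26 to 1.62, adjusted p = 0.026). In wild type it read 29.5, 18.2 and 53.8 with tZ and 23.7, 33.8 and 39.7 with DMSO, which overlapped. The log2 change in wild type was -0.017 (SE 0.31, interval -0.69 to 0.66, adjusted p = 0.97), and its sign turned under other scalings. The highest tZ value in each genotype was that of replicate 3. Leaving out mutant tZ replicate 3 gave a change of 0.56 in the mutant (adjusted p = 0.14), and the call there was also lost without mutant DMSO replicate 2 (0.052) or 3 (0.080), with the floor at the absent-control maximum (0.077) and with array weights (0.051). The range over all alternatives was 0.010 to 0.14.

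**Figure D1:**
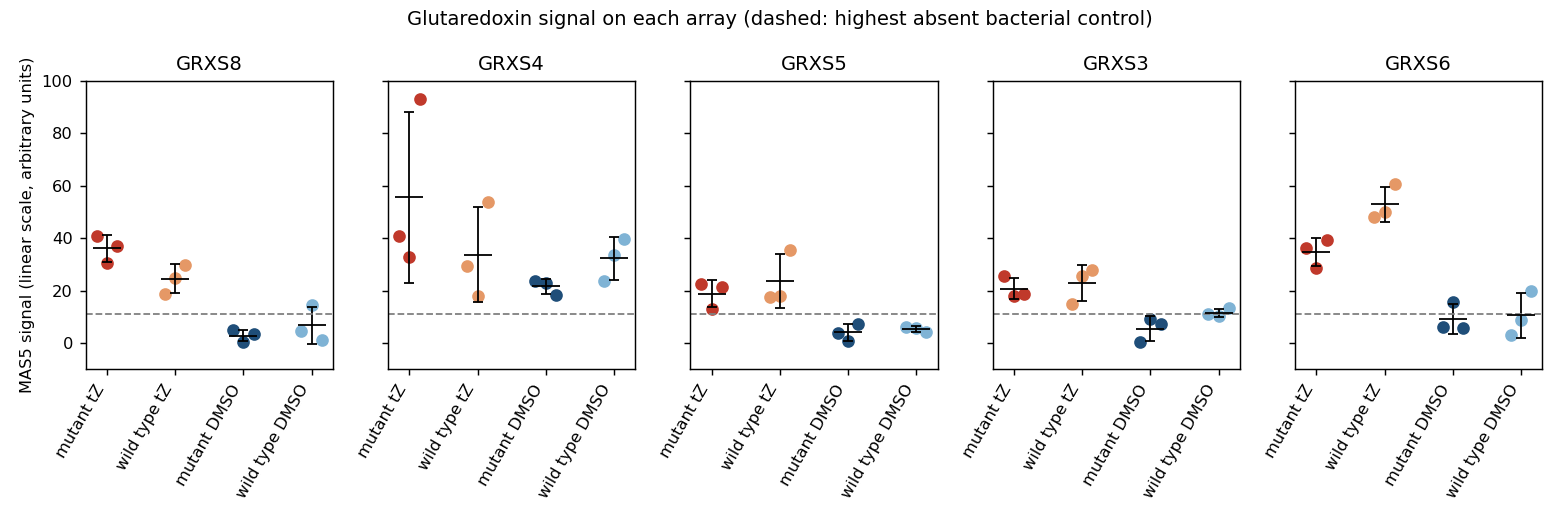
MAS5 signal (vertical axis, linear scale, arbitrary units) of the 5 glutaredoxin probe sets on each of the 12 arrays. Points are arrays, horizontal marks and bars are the mean and SD of 3 arrays, and the dashed line is the highest signal of the absent bacterial controls, 11.2. All 30 tZ points lie above the line, and all 6 DMSO points of GRXS5 lie below it.

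As a group, all 5 glutaredoxins were higher with tZ in the mutant at an adjusted p under 0.05, where 17.9% of all probe sets tested were called higher. In wild type 4 of the 5 were higher, where 18.2% of all probe sets were. Called higher in both genotypes were 4 of the 5, GRXS3, GRXS5, GRXS6 and GRXS8, and 15.3% of all probe sets. The tZ and DMSO arrays did not overlap for 5 of 5 in the mutant, against 21.5% of all probe sets with higher tZ arrays, and for 4 of 5 in wild type, against 20.7%. The log2 changes of the 5 had a median of 1.05 in the mutant and 1.09 in wild type, beside medians over all probe sets of -0.066 in the mutant and -0.075 in wild type. The mean differences in wild type and in the mutant have no array in common, but their variance is estimated from all arrays together. Both comparisons also carry the difference between the tZ and DMSO array sets described above, so they are not independent of each other. Counts over paralogs that may share signal need not amount to 5 separate observations.

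**Figure D2:**
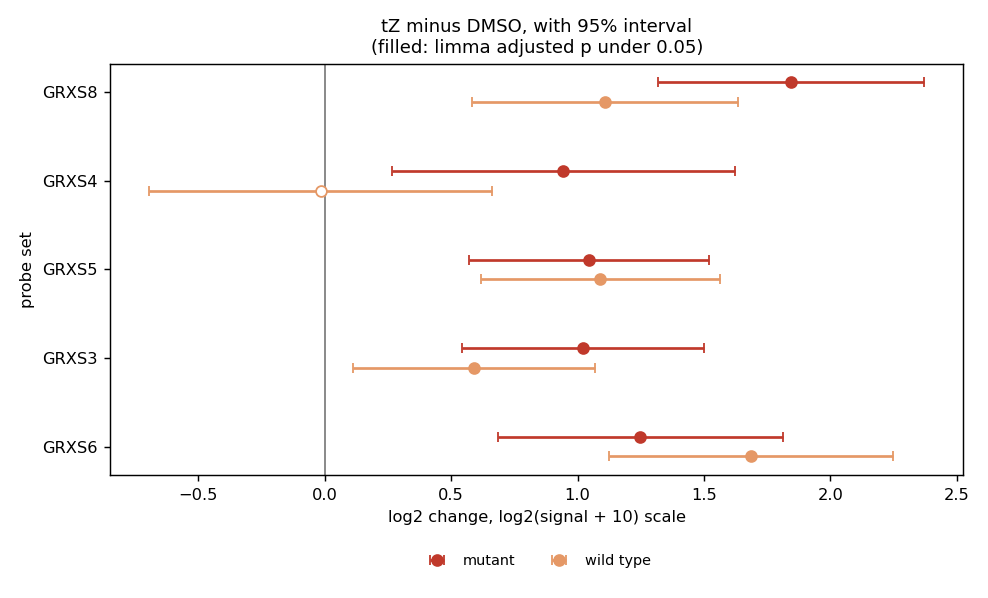
Difference between tZ and DMSO (horizontal axis, log2(signal + 10) scale) for each glutaredoxin in the mutant and in wild type, with 95% intervals from the fit to all 12 arrays. The interval of GRXS4 in wild type, -0.69 to 0.66, includes 0, and those of the other 9 comparisons lie above it.

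The next question was whether these responses differed between the mutant and wild type. The difference between the 2 responses was tested. None of the 5 glutaredoxins passed by limma, nor did any other probe set in the array (0% called, with 1598 probe sets at an unadjusted p under 0.05). Of the 5, GRXS4 had an unadjusted p under 0.05. For GRXS4 the mutant minus wild type difference in response was 0.96 on the log2 scale (interval 0.00070 to 1.92, adjusted p = 0.71). For GRXS8 the difference was 0.74 (interval -0.0061 to 1.48, adjusted p = 0.72), read against DMSO arrays of which 5 of 6 were below the absent-control maximum, and it ran from 0.30 to 1.34 over the alternatives. The difference for GRXS3 was 0.43 (interval -0.25 to 1.11, adjusted p = 0.84) and that for GRXS5 was -0.044 (interval -0.71 to 0.63, adjusted p = 0.99). GRXS6 had a difference of -0.44 (interval -1.23 to 0.36, adjusted p = 0.87). The intervals are wide: they leave room for a response in the mutant that is smaller by 0.71 or larger by 0.63 on the log2 scale for GRXS5, the gene with the smallest difference.

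After tZ, the mutant and wild type arrays did not overlap for 2 of the 5. GRXS8 was higher in the mutant, 36.2 ± 5.26 against 24.6 ± 5.45 in wild type (SD, n = 3 each), a pattern without overlap that 5.71% of probe sets showed. GRXS6 was lower in the mutant, 34.7 ± 5.32 against 52.9 ± 6.69, which 6.77% showed. In the fit across all probe sets neither passed. The log2 difference was 0.42 for GRXS8 (SE 0.24, interval -0.10 to 0.95, adjusted p = 0.95) and -0.49 for GRXS6 (SE 0.26, interval -1.06 to 0.069, adjusted p = 0.95). GRXS4 averaged 55.6 ± 32.7 in mutant tZ and 33.8 ± 18.2 in wild type tZ, GRXS5 19.0 ± 5.23 and 23.8 ± 10.3, and GRXS3 20.8 ± 4.12 and 22.9 ± 6.84, all with overlap. Thus 0 of 5 were called between genotypes after tZ, where 0.0352% of probe sets were, and 1265 had an unadjusted p under 0.05.

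Under DMSO most values of GRXS3, GRXS5, GRXS6 and GRXS8 were below the absent-control maximum in both genotypes, so no direction between the genotypes can be read for these genes. GRXS3 averaged 5.61 ± 4.64 in mutant DMSO and 11.5 ± 1.57 in wild type DMSO, and it was the 1 glutaredoxin whose groups did not overlap (6.42% of probe sets had lower mutant arrays without overlap). All values but 1 of these 6 were below the absent-control maximum, and the log2 difference of -0.51 did not pass (SE 0.22, interval -0.99 to -0.031, adjusted p = 0.50). GRXS4, measured above background on each array, read 21.7 ± 2.83 in mutant DMSO and 32.4 ± 8.14 in wild type DMSO (log2 difference -0.41, interval -1.08 to 0.27, adjusted p = 0.74). No glutaredoxin was called, against 0.0132% of all probe sets, with 2162 at an unadjusted p under 0.05. Averaged over both treatments the mutant minus wild type difference ran from -0.29 for GRXS3 to 0.075 for GRXS4, again with 0 of 5 called (0.0572% of probe sets, 1808 at an unadjusted p under 0.05).

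**Figure D3:**
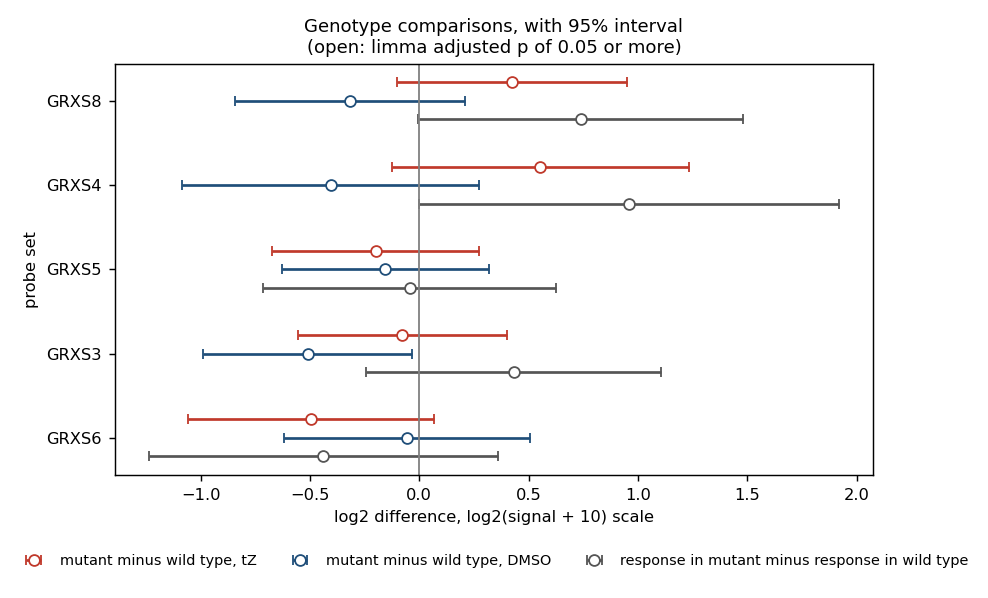
Genotype differences of the 5 glutaredoxins (horizontal axis, log2(signal + 10) scale) after tZ, under DMSO, and as the difference between the tZ responses, with 95% intervals. All points are open, since 0 of 15 passed at an adjusted p of 0.05; after tZ, GRXS8 lies at 0.42 and GRXS6 at -0.49.

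The order of the 4 group means was not the same for all 5 genes. For GRXS8 it ran from 36.2 ± 5.26 in mutant tZ through 24.6 ± 5.45 in wild type tZ and 6.80 ± 6.93 in wild type DMSO down to 2.94 ± 2.26 in mutant DMSO, with the DMSO groups overlapping. For GRXS6 it began with wild type tZ at 52.9 ± 6.69, followed by mutant tZ at 34.7 ± 5.32, and the DMSO groups at 10.7 ± 8.64 in wild type and 9.24 ± 5.64 in the mutant overlapped. GRXS5 and GRXS3 also began with wild type tZ, but both tZ groups overlapped for each. For GRXS4 mutant tZ was highest at 55.6 ± 32.7 and mutant DMSO lowest at 21.7 ± 2.83, and the wild type groups between them overlapped with each other, with mutant tZ and with mutant DMSO.

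Genes next to the run were read to see whether the rise was shared along the chromosome. AT4G15640, on one side, was measured on all arrays and did not pass in either genotype (log2 change 0.073 in the mutant, adjusted p = 0.61, and -0.16 in wild type, adjusted p = 0.21). Between it and GRXS8 lies AT4G15650, and AT4G15710 follows GRXS3. Both were below the absent-control maximum on all 12 arrays, so no change could be read from them. The gene between GRXS8 and GRXS4, AT4G15670, had no probe set named for it alone in the annotation used here, and its signal was not read. Around GRXS6 on chromosome 3, the adjacent gene AT3G62920 rose in the mutant, 19.1 ± 2.67 with tZ against 8.70 ± 3.52 with DMSO (log2 change 0.65, SE 0.15, adjusted p = 0.0030). In wild type it had a log2 change of 0.33 (adjusted p = 0.11). AT3G62920 was below the absent-control maximum on 2 of 3 DMSO arrays in the mutant and on all 3 in wild type.

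**Figure D4:**
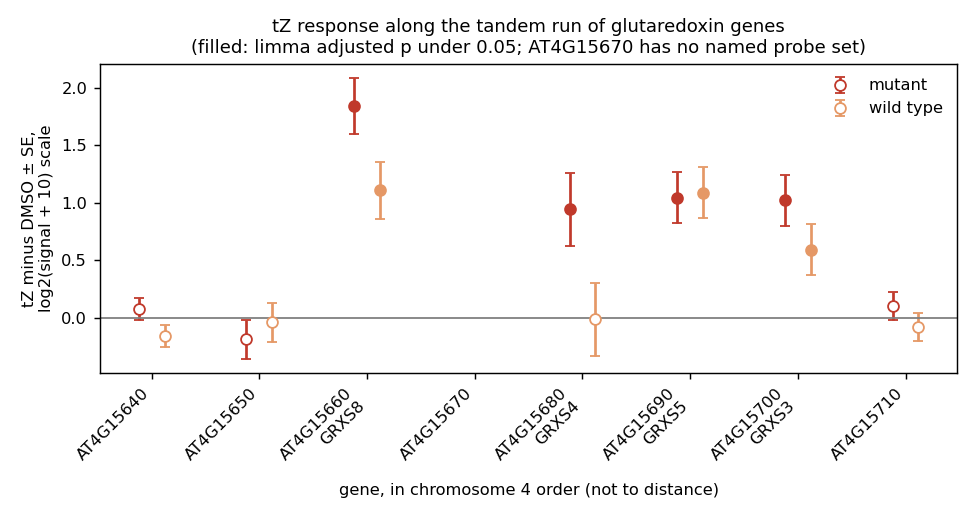
Difference between tZ and DMSO (vertical axis, log2(signal + 10) scale, bars are SE) for the genes in order along the run on chromosome 4, which is not drawn to distance. The 4 glutaredoxins span 0.94 to 1.85 in the mutant, and AT4G15640, the flanking gene measured above background, lies at 0.073 there; AT4G15650 and AT4G15710 are drawn but were below the absent-control maximum on all 12 arrays.

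The wider class gave context for these 5. Of 21 CC-type genes listed, 17 were measured, and 12 of these were not among the 5. In the mutant 6 of the 12 rose, 2 fell and 4 did not pass (median log2 change 0.44, against -0.066 over all probe sets), beside 17.9% higher and 24.9% lower among all probe sets. AT2G47880 rose most of the 12, with 104 ± 8.19 with tZ and 37.7 ± 3.85 with DMSO (log2 change 1.26, SE 0.12, adjusted p = 9.0e-07). ROXY1, known for its part in petal formation, rose by 0.73 (adjusted p = 0.0041), AT1G03020 by 0.72 (adjusted p = 0.0055) and AT1G06830 by 0.71 (adjusted p = 2.9e-05). ROXY1 and AT1G03020 were each below the absent-control maximum on 2 of 3 mutant DMSO arrays, so their starting levels were mostly not measured. The genes that fell were AT5G18600 and GRX480, a TGA-binding glutaredoxin, which were named after their values were seen. AT5G18600 lost its call with mutant tZ replicate 2 left out (adjusted p = 0.056, all alternatives from 0.0017 to 0.056). GRX480 lost it with mutant tZ replicate 3 or mutant DMSO replicate 2 left out and with the floor (highest adjusted p 0.15, lowest 0.012).

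In wild type 7 of the 12 rose, 1 fell and 4 did not pass (median 0.54, against -0.075), beside 18.2% higher and 25.4% lower among all probe sets. With quantile normalization 8 of the 12 rose in each genotype, beside 19.3% of all probe sets in the mutant and 19.7% in wild type. AT2G47880 again rose most, with 111 ± 13.7 with tZ and 36.1 ± 5.34 with DMSO (log2 change 1.39, SE 0.12, adjusted p = 3.3e-07). AT5G11930 rose by 0.82 (adjusted p = 4.5e-04). ROXY2, known for its part in anther development, rose by 0.80 (adjusted p = 0.0027), but its mean with DMSO was in the range of absent controls and the call was lost with the floor (adjusted p = 0.25, all alternatives from 6.9e-04 to 0.25). AT5G18600 fell, with 346 ± 47.6 with tZ and 677 ± 33.9 with DMSO (log2 change -0.96, SE 0.12, adjusted p = 2.1e-05). The CC-type genes nearest to GRXS6, AT3G62950 and AT3G62960, split in wild type. AT3G62960 passed (log2 change 0.63, adjusted p = 0.0088), and AT3G62950, below the absent-control maximum on 11 of 12 arrays, did not (0.33, adjusted p = 0.39).

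**Figure D5:**
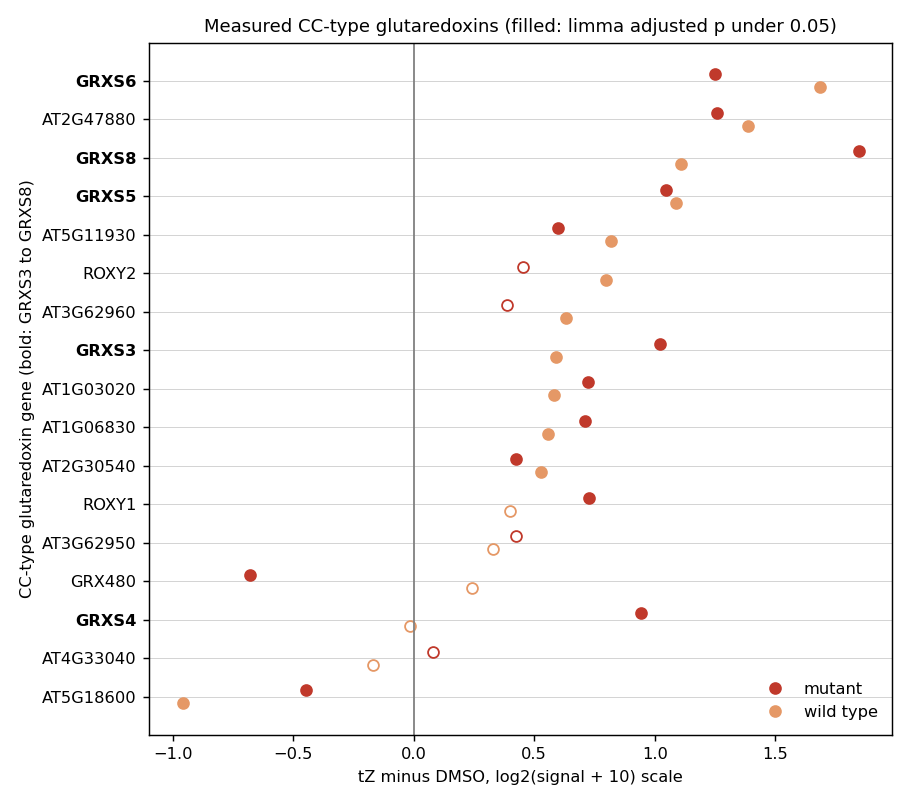
Difference between tZ and DMSO (horizontal axis, log2(signal + 10) scale) for the 17 measured CC-type glutaredoxins in the mutant and in wild type, ordered by the wild type value. GRXS6 is highest in wild type at 1.69, GRXS8 is highest in the mutant at 1.85, and AT5G18600 is lowest in wild type at -0.96.

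Other parts of the glutathione and cytokinin systems were read from lists. Among glutaredoxins with CPYC or CGFS active sites, which include the housekeeping forms, 5 of 10 were measured, of which 3 rose, 1 fell and 1 did not pass in each genotype. Among all probe sets 17.9% were higher and 24.9% lower in the mutant, and 18.2% higher and 25.4% lower in wild type. AT2G20270 (GRXS12, a plastid form) rose most, with log2 changes of 1.96 in the mutant and 1.99 in wild type, and AT1G77370 rose by 1.52 and 1.64 and AT5G20500 by 1.53 and 1.44 in the same order. GRXC1, a cytosolic form, fell by 0.58 in the mutant and by 0.61 in wild type, all with adjusted p of 5.2e-04 or less. Of 4 genes for glutathione synthesis and reduction 2 were measured, and GR1, a glutathione reductase gene, fell by 0.47 in the mutant (adjusted p = 0.0026) and had a change of -0.16 in wild type (adjusted p = 0.27). A gene counts as measured where the annotation used here names a probe set for it alone, and that annotation names no gene for 8730 probe sets, so genes counted as not measured may still have one on the array. By this count 0 of 10 TGA factor genes and 1 of 15 other nitrate response genes were measured. The nitrate response gene, AT1G68670, a transcription factor gene of the HHO family, had a change of -0.18 in the mutant (adjusted p = 0.35) and fell by 0.62 in wild type (adjusted p = 0.0027).

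The type-A response regulators, direct targets of the type-B regulators, were read beside the glutaredoxins, with 2 of 10 measured. After tZ both were lower in the mutant, ARR15 at 158 ± 5.34 against 447 ± 40.2 in wild type (log2 difference -1.44, adjusted p = 4.4e-04) and ARR16 at 102 ± 8.16 against 178 ± 4.99 (-0.75, adjusted p = 7.1e-04). The same contrast gave values from -0.49 to 0.55 for the 5 glutaredoxins, and none passed. The glutaredoxins were dimmer, with tZ group means of 19.0 to 55.6, where the log2(signal + 10) scale understates a change. The interval of GRXS6, -1.06 to 0.069, includes the value of ARR16, and those of the other glutaredoxins do not. Of all probe sets 0.0352% were called in it. The difference between the 2 tZ responses did not pass by limma for either regulator. It was -1.23 for ARR15 (adjusted p = 0.18) and -0.86 for ARR16 (adjusted p = 0.054), passing in 1 and 6 of 21 alternatives. None of the glutaredoxins passed that test either. Of 11 type-B regulators 2 were measured, and both had group means below the absent-control maximum.

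Genes with the most similar profile over the 12 arrays were found by the root mean square difference between centred log2(signal + 10) profiles, among 8262 named probe sets. For GRXS6 the nearest was EXPA4, an expansin gene, at 0.26 log2 units, followed by AT1G52670 (0.28) and AT2G40600 (0.30). For GRXS8 they were AT3G13674 (0.27), AT3G61980 (0.28) and AT1G27100 (0.28), and for GRXS5 AT5G66770 (0.20), AT4G21450 (0.21) and AT1G61170 (0.21). GRXS3 was nearest to AT5G20740 (0.20), AT5G63150 (0.20) and AT5G60590 (0.22). GRXS4 had less close neighbours, AT2G20670 (0.34), AT3G15450 (0.35) and AT1G19310 (0.36). The 5 glutaredoxins were not each other's nearest profiles. Each was set against 8262 other probe sets, so this says little about how alike the 5 are. Their ranks ran from 328 (GRXS5 for GRXS8) to 6692 (GRXS6 for GRXS4). The distances also include DMSO values that mostly lay below the absent-control maximum. The closest pair was GRXS3 and GRXS5 at 0.36, and the most distant was GRXS4 and GRXS6 at 0.73. The nearest genes were picked for likeness to profiles that hold the tZ response, so their own tZ changes follow from that choice. These changes are given as a description only. The nearest profiles of GRXS3, GRXS5, GRXS6 and GRXS8 all had a positive tZ change in both genotypes. Those of GRXS4 rose in the mutant (log2 change 0.61, 0.79 and 0.68 in the order given). In wild type their changes were -0.030, -0.047 and 0.21.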

How the data were processed

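Each probe set of the deposited table holds 1 linear intensity per array, made with MAS5 per the submitters' processing notes. Its version and the scaling of arrays are not given in the sources used here. Array medians ran from 33.8 to 35.7. Scanner files and detection calls were not used here. Precision is limited by having 3 arrays a group.

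Of 22810 probe sets, 64 controls were left out. In the annotation, 13513 of the remaining 22746 named 1 gene, 503 several and 8730 none. A total of 13436 matched a locus of the RefSeq table for TAIR10.1, and gene order came from that table. Names of the 5 genes follow the assignment given for their probe sets.

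Deposited signals were tested as log2(signal + 10) with limma 3.58.1 in R 4.3.3, with 1 mean per group over 12 arrays and eBayes with a trend. P-values are two-sided and Benjamini-Hochberg adjusted over all 22746 probe sets of a contrast, at 0.05. Tables and plots used pandas 2.3.3 and matplotlib 3.10.9. The fit was tested on simulated data with normal noise, in which only probe sets above the median wild type DMSO level were changed. That test does not cover probe sets near background, as most of these glutaredoxins were under DMSO.

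The 5 genes and the 9 gene lists (36 of 101 entries measured, by the brightest probe set) were chosen with earlier results of these data known. Named genes were the 5, up to 4 passing members of a list with the largest changes, chromosome neighbours, and the 3 nearest profiles of each gene, among probe sets naming 1 gene with a median tZ signal above the absent-control maximum. A bound compares the geometric mean with tZ with that of DMSO values raised to 11.2.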

Additional observations from a re-analysis of the deposited data

How the results depend on the processing

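The 30 single results (5 genes in 6 contrasts) were recomputed in 632 alternatives, of which 591 kept direction and side of the threshold, 14 lost the call and 27 changed sign. No result whose call passed changed sign. The response calls of GRXS6 and GRXS8 held in every alternative run for both genotypes, with adjusted p of at most 0.012, and so did those of GRXS3 in the mutant and GRXS5 in wild type, at most 0.027. Leaving out the dimmest 40% of probe sets removed GRXS3, GRXS5 and GRXS8, so 2 of the 2 left were called in the mutant and 1 of 2 in wild type. Brightness was taken over tZ and DMSO arrays together. GRXS6 averaged 9.24 in mutant DMSO and 10.7 in wild type DMSO, against 34.7 and 52.9 with tZ. It was thus kept through its tZ arrays, and its calls under this filter add no separate support. Of the 13648 probe sets kept, 29.2% were called higher in the mutant and 29.6% in wild type. With signals raised to the absent-control maximum 3 of 5 were called in the mutant and 4 in wild type, where 17.2% and 17.4% of all probe sets were called higher. Leaving out 1 array gave 4 to 5 calls in the mutant and 3 to 4 in wild type. In these fits 16.3% to 18.3% of all probe sets were called higher in the mutant and 16.7% to 18.3% in wild type. The 4 other counts of calls, for genotypes and the interaction, were 0 in all alternatives. The pseudocount sets the size of the changes: from 50 to 1 the change of GRXS8 in the mutant moved between 0.70 and 3.45.

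All changes of sign concerned differences that had not passed. GRXS4 in wild type was 0.0069 with a pseudocount of 50, 0.015 with quantile normalization, 0.013 with a common median and -0.33 to 0.26 with 1 array left out. The interaction of GRXS3, 0.43 as reported, was -0.032 with the floor, and that of GRXS5 was 0.28 with a pseudocount of 1 and -0.21 to 0.19 with 1 array left out. The average genotype difference of GRXS8 was -0.12 with a pseudocount of 1, -0.015 with array weights and -0.069 to 0.21 with 1 array left out, and that of GRXS4 was -0.12 to 0.23. After tZ the genotype difference of GRXS3 ran from -0.26 to 0.035 and that of GRXS5 from -0.32 to 0.038, and under DMSO that of GRXS5 from -0.32 to 0.0097 and that of GRXS6 from -0.35 to 0.26. The cause of these changes was not tested.

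Over all probe sets, arrays with the same replicate number did not deviate together from their group means (correlations of -0.085 to 0.069). This check cannot show whether such arrays share a batch that affects some genes. With a replicate block 5 of 5 were called in the mutant, 4 of 5 in wild type and 0 between genotypes, as without it. Of all probe sets 17.7% were then called higher with tZ in the mutant and 17.9% in wild type. Across all probe sets the calls between genotypes under DMSO were 3, against 13 with the floor, 18 without the dimmest 40%, 10 without replicate 1 of the wild type DMSO arrays, and 5 when replicate 3 of that group or wild type tZ replicate 1 or 2 was left out. After tZ they were 8, 22 with array weights and 15 without the dimmest 40%. Averaged over treatments they were 13, 5 without a variance trend, 6 with the replicate block, 20 with the floor and 26 without the dimmest 40%, and they were 5 to 8 without any 1 of the mutant tZ arrays, mutant DMSO replicate 2 or 3, wild type tZ replicate 1 or 3, or wild type DMSO replicate 2. The interaction had 0 to 2.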

Other observations

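Within an array, the ratio of GRXS8 to GRXS6 signal after tZ was 1.13, 1.06 and 0.945 in the mutant and 0.392, 0.501 and 0.492 in wild type, without overlap. This pair was picked among 10 after the values were seen, and 5 of the 10 pairs had ratios without overlap between the genotypes. The ratio of GRXS8 to GRXS6 restates their values given above, neither of which passed between the genotypes, so it is a description only.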
